A study of Rattus norvegicus with 8 samples.

Results

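The genes described are 10 that copy DNA or supply its building blocks: Mcm2, Mcm3, Mcm4, Mcm5, Mcm6, Mcm7, Pcna, Rrm1, Rrm2 and Tyms. They were chosen by function, and each probe set whose single gene symbol in the platform annotation is one of them was taken. That gave 9 probe sets for 9 of the 10 genes, out of 31042 probe sets tested and 14217 genes with such a probe set. Rrm2, the small subunit of ribonucleotide reductase, stands only on 2 probe sets that also list Rrm2l1, so no value is given for it. Liver RNA came from male Wistar rats whose cirrhosis was induced by inhaled CCl4 (carbon tetrachloride, a hepatotoxin), with 0.3 g/L phenobarbital in the drinking water of both groups. The 4 treated livers carry the label antiangiogenic treatment, and the series design text speaks of angiogenesis inhibitors, with no compound or dose in the sources used here. The 4 livers they are set against are labelled vehicle in the sample titles and called non-treated in the design text. By the labels, RNA of 1 liver went onto each Affymetrix Rat2302 array, and the values are log2 intensities after robust multi-array average (RMA), which corrects background, normalizes arrays to each other and joins the probes of each probe set.

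Mcm2 to Mcm7 encode the subunits of the ring-shaped helicase that is loaded onto replication origins in G1 and unwinds DNA in S phase. Pcna encodes the sliding clamp that holds DNA polymerases on the template. Rrm1 encodes the large subunit of ribonucleotide reductase, which makes deoxyribonucleotides, and Tyms encodes thymidylate synthase, which makes the thymidine nucleotide. Transcripts of these genes rise as cells pass from G1 into S phase, largely through E2F transcription factors. Hepatocytes of the adult liver are mostly quiescent and re-enter the cycle after injury or loss of liver mass, and in an injured liver inflammatory, ductular and mesenchymal cells also divide. In whole liver, fewer replicating cells and less RNA per replicating cell cannot be told apart.

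Facts of the arrays that touch these genes are as follows. Treated 3 and vehicle 4 were nearly identical across probe sets (r = 0.996, which is across probe sets that are not independent, against 0.956 to 0.988 in the 27 other pairs), although they carry different group labels. Whether both hold RNA of 1 liver, or 1 of the labels is wrong, was not tested. If so, a group would hold fewer than 4 independent livers, so the differences are also given without both arrays. Clustering of the arrays by the bacterial spike-in controls was cut at 3 groups, a number that was set rather than found. Each group held as many treated as vehicle arrays. The first held treated 1 and vehicle 1, the second treated 2 and 4 with vehicle 2 and 3, the third treated 3 and vehicle 4. The Gapdh control probe sets, which gauge RNA integrity, differed (3′ minus 5′, log2) by 0.133 to 0.404 on treated and 0.186 to 0.414 on vehicle arrays. Those of beta-actin differed more, by 1.77 to 1.88 on treated and 1.70 to 1.91 on vehicle arrays. Hepatocyte markers, 9 of 10 measured, averaged 11.57 to 12.00 on treated and 11.78 to 11.95 on vehicle arrays. None of the 72 member values (0) lay at or below the 25th percentile of its array, which was 3.74 to 3.91.

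Promoter sequence was available from RefSeq (rat assembly GRCr8) for 8 of the 10 genes, Mcm4 and Rrm2 being absent from the table used. The window runs from 250 bases before to 50 after the transcript start that RefSeq annotates, which in Mcm2, Mcm7 and Tyms lies inside the outermost boundary of the gene. It was searched on both strands for 4 spellings of the E2F site, TTTCCCGC, TTTGGCGC, TTTCGCGC and TTTGCCGC. At least 1 of them stood in 6 of the 8 windows, those of Mcm2, Mcm3, Mcm5, Mcm6, Mcm7 and Tyms, against 2.14% of all 33469 promoters. The windows of Pcna and Rrm1 held none of these letters. The stretches below, of 60 bases each, show for each of the 6 genes the match nearest to the start among those that begin upstream of it. Capitals mark the E2F spellings, and each stretch reads 5′ to 3′ on the strand of its gene.
Mcm2, GRCr8 chr4:122918095-122918154, minus strand: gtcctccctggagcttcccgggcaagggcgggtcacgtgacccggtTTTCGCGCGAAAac
Mcm3, GRCr8 chr9:30733745-30733804, minus strand: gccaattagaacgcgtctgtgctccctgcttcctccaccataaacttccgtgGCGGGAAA
Mcm5, GRCr8 chr19:13488753-13488812, plus strand: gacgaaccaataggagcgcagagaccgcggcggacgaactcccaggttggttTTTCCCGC
Mcm6, GRCr8 chr13:42404458-42404517, minus strand: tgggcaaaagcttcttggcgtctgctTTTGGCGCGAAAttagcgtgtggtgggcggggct
Mcm7, GRCr8 chr12:22163201-22163260, minus strand: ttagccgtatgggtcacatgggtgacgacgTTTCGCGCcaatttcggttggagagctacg
Tyms, GRCr8 chr9:120776091-120776150, minus strand: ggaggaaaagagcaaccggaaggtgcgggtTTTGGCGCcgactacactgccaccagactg

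In Mcm2 and Mcm6 the capitals are a pair of overlapping matches on opposite strands. Those of Mcm2 begin 14 and 10 bases upstream of the start, and those of Mcm6 begin 139 and 135 bases upstream. The single match shown begins 8 bases upstream in Mcm5, 52 in Mcm7 and 37 in Tyms. In Mcm3 it begins 6 bases upstream and runs over the start. Mcm5 held a further overlapping pair beginning 213 and 209 bases upstream, Mcm7 a further match at 233, and Mcm3 one inside the transcript. The CCAAT box, bound by NF-Y, stood in 6 of the 8 windows, against 37.5% of all promoters, 19 of 27 promoters of mitosis genes and 7 of 9 of hepatocyte markers. Its last match in Mcm7 overlaps the E2F letters by 1 base. E2F spellings stood in 9 of 19 promoters of origin licensing genes, 15 of 38 of replication fork genes, 2 of 31 of nucleotide synthesis genes, 3 of 15 of G1/S regulators and 1 of 27 of mitosis genes. A match is a description of letters, and binding was not measured.

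The helicase genes had their lowest levels on treated 1 and treated 2, while treated 3 and treated 4 lay within or above the vehicle range. Values are log2 RMA levels of each gene's 1 probe set on treated 1 to 4 and vehicle 1 to 4, and differences are treated minus vehicle with limma's 95% interval. Mcm6 (1371074_a_at) stood at 4.72, 4.75, 7.07 and 7.53 in treated livers, against 6.82, 6.82, 7.02 and 7.24 in vehicle livers. Treated 1 and 2 were more than 2 log2 units below every vehicle liver, and treated 4 was the highest of the 8. Its group means were 6.02 ± 1.50 in treated and 6.97 ± 0.20 in vehicle livers (SD, n = 4 each), a difference of −0.96 (−2.36 to 0.45), 1.94-fold lower. From the lowest to the highest array Mcm6 spanned 7.05-fold, a range exceeded by 1.61% of all probe sets.

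Mcm2 (1374036_at) stood at 6.33, 6.24, 7.56 and 7.75 in treated livers, against 7.16, 7.44, 7.50 and 7.41 in vehicle livers, a difference of −0.41 (−1.18 to 0.36). Treated 1 and 2 were below all vehicle livers and treated 3 and 4 above all of them. Mcm3 (1372406_at) stood at 6.08, 5.71, 6.59 and 6.63 in treated livers, against 6.39, 6.38, 6.45 and 6.56 in vehicle livers, a difference of −0.20 (−0.65 to 0.26). Treated 1 and 2 were again below and treated 3 and 4 above all vehicle livers, on a narrower scale. Mcm5 (1376055_at) stood at 6.15, 6.18, 7.54 and 7.41 in treated livers, against 7.13, 6.96, 6.95 and 7.40 in vehicle livers, a difference of −0.29 (−1.04 to 0.46). Again the 2 lowest and the 2 highest of the 8 livers were treated, although treated 4 and vehicle 4 differed by under 0.01.

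Mcm4 (1373557_at) stood at 6.53, 6.47, 7.29 and 7.58 in treated livers, against 7.53, 7.12, 7.39 and 7.51 in vehicle livers, a difference of −0.42 (−0.99 to 0.15). Treated 3 lay inside the vehicle range here. Mcm7 (1388744_at) stood at 7.68, 7.94, 8.90 and 9.12 in treated livers, against 8.80, 8.37, 9.09 and 8.98 in vehicle livers, a difference of −0.40 (−1.14 to 0.34). Treated 3 was again inside the vehicle range and treated 4 just above it. The 6 subunits thus shared treated 1 and 2 as their lowest livers, each of the 2 being the lowest for 3 of them.

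**Figure D1:**
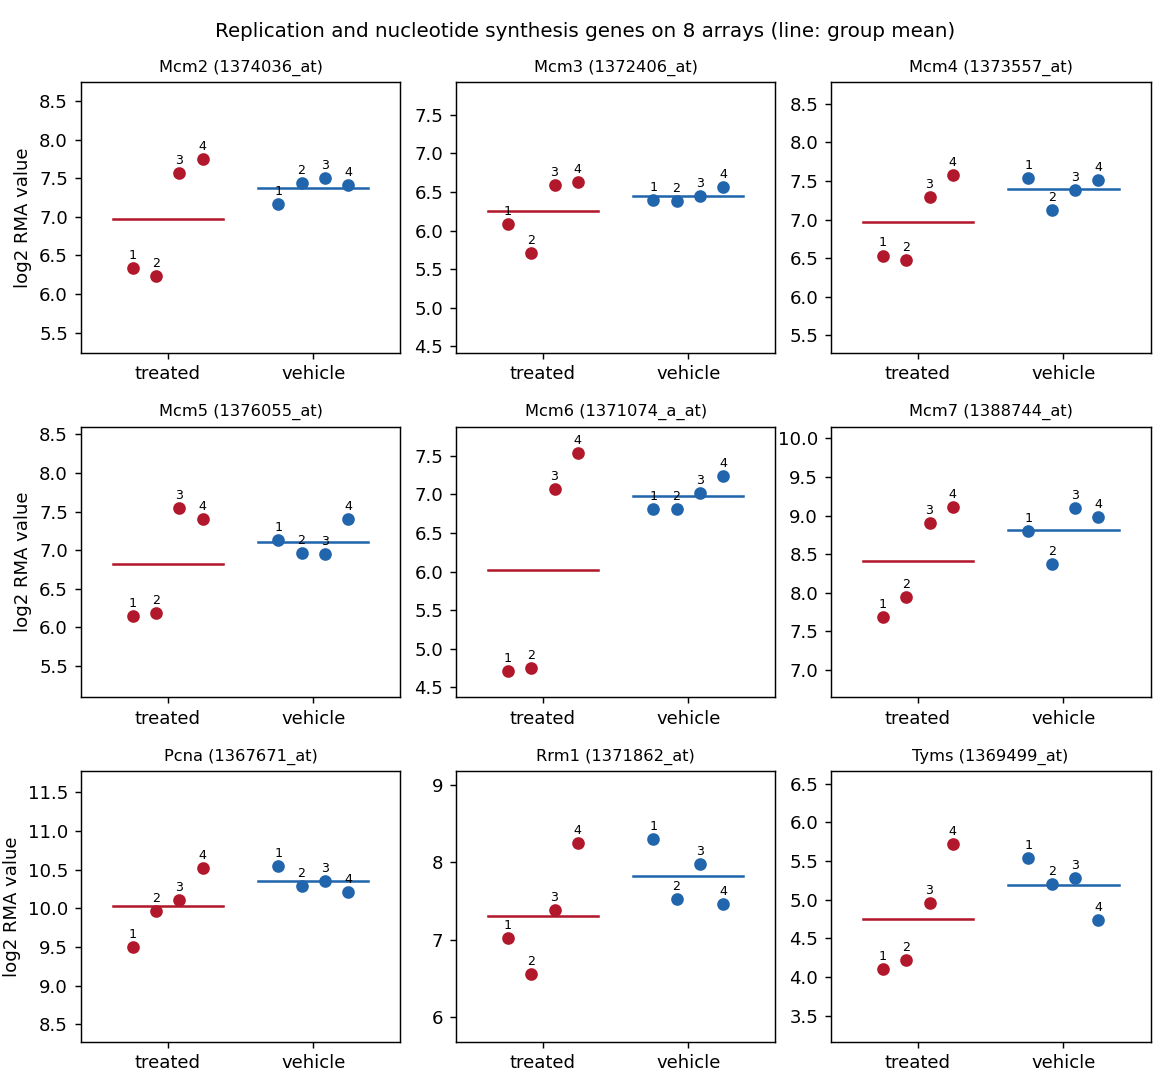
Log2 RMA values of the 9 measured genes, 1 panel per probe set, with 4 treated arrays (red, left) and 4 vehicle arrays (blue, right) numbered by replicate and a line at each group mean; every panel spans the same number of log2 units. In every panel treated 1 and 2 lie below all vehicle arrays, and for Mcm6 they stand at 4.72 and 4.75 against 6.82 to 7.24.

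Pcna (1367671_at), the clamp, stood at 9.51, 9.96, 10.11 and 10.52 in treated livers, against 10.54, 10.29, 10.36 and 10.21 in vehicle livers, a difference of −0.32 (−0.78 to 0.13). Treated 1, 2 and 3 were below every vehicle liver and treated 4 was inside the vehicle range. Rrm1 (1371862_at), the reductase subunit, stood at 7.03, 6.56, 7.38 and 8.25 in treated livers, against 8.30, 7.53, 7.98 and 7.46 in vehicle livers, a difference of −0.51 (−1.29 to 0.27). As for Pcna, treated 1, 2 and 3 were below every vehicle liver and treated 4 was inside their range. Tyms (1369499_at), thymidylate synthase, stood at 4.10, 4.22, 4.96 and 5.73 in treated livers, against 5.54, 5.21, 5.29 and 4.73 in vehicle livers, a difference of −0.44 (−1.23 to 0.35). Here treated 3 was above vehicle 4, the lowest vehicle liver, and treated 4 was the highest of all.

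The clamp and the nucleotide genes differed from the helicase genes in where the nearly identical treated 3 and vehicle 4 fell. For Pcna, Rrm1 and Tyms both arrays lay below vehicle 1, 2 and 3. For Mcm3, Mcm5 and Mcm6 both lay above vehicle 1, 2 and 3. For Mcm2, Mcm4 and Mcm7 at least 1 of the pair lay among them. This is an order of values on a pair of near-copies, and the difference between the gene groups was not tested.

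The treated minus vehicle difference was below 0 for all 9 measured genes, from −0.96 to −0.20 with a median of −0.41, but every interval reached past 0. Across the array 45.3% of probe sets had a difference below 0. None of the 9 was called by limma with Benjamini-Hochberg adjustment over all 31042 probe sets (0, adjusted p = 0.979 for each), and 0% of all probe sets were. At an unadjusted p under 0.05 limma also found 0 of the 9, against 3.93% of all probe sets. The groups overlapped for all 9, against 1.67% of probe sets without overlap. Differences lower than that of Mcm6 were held by 0.999% of all probe sets, and lower than that of Mcm3, the smallest of the group, by 14.0%.

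Single arrays moved these differences. Without treated 4, the difference of Mcm6 was −1.46 and that of Rrm1 −0.83, and 5 of the 9 genes had an unadjusted p under 0.05 in limma, against 9.29% of all probe sets without that array (smallest adjusted p of the 9 = 0.515). Without treated 1 the Mcm6 difference was −0.52 and that of Mcm5 −0.07, and without treated 2 that of Mcm3 was −0.01. Without the nearly identical arrays the 9 differences lay between −1.22 (Mcm6) and −0.27 (Mcm3). All differences stayed below 0 under every alternative run, several of which cannot move a difference. Each alternative kept treated 1 or treated 2, the 2 lowest livers for each of the 9. No fit was run without both. For Mcm2, Mcm3, Mcm5, Mcm6 and Mcm7, treated 3 and 4 were both above the vehicle mean, so without treated 1 and 2 these differences lie above 0. For Mcm6 they stood at 7.07 and 7.53, against a vehicle mean of 6.97. For Mcm4, Pcna, Rrm1 and Tyms, treated 3 was below the vehicle mean and treated 4 above it.

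Within the spike-in groups, the first (treated 1 against vehicle 1) had differences from −2.10 for Mcm6 to −0.31 for Mcm3, with a median of −1.04. The second, with 2 arrays of each group, ran from −0.78 for Mcm6 to −0.08 for Pcna, with a median of −0.25. The third, the near-copies, ran from −0.22 for Mcm4 to 0.23 for Tyms, with a median of −0.08. The differences of the members were therefore below 0 within both of the first spike-in groups and on both sides of 0 in the third. The first group sets 1 array against 1. In the second, treated 2 was below and treated 4 above both vehicle arrays for every member. For Mcm6 treated 4 stood at 7.53, against 6.82 and 7.02 on vehicle 2 and 3. The differences below 0 in the second group thus come from treated 2.

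**Figure D2:**
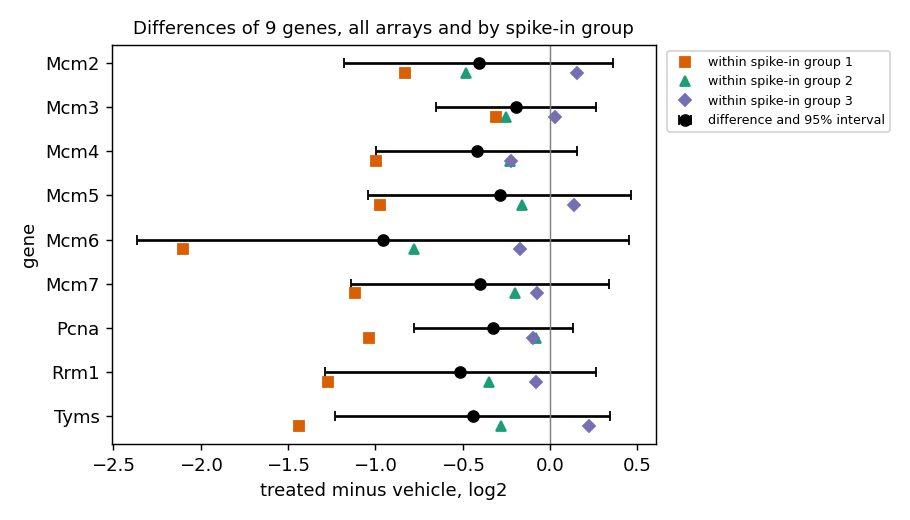
Treated minus vehicle difference (log2) of 9 genes with limma's 95% interval over 8 arrays (black), and the difference within each spike-in group (coloured). All 9 points lie below 0 and all intervals include 0, and differences are farthest from 0 in spike-in group 1 (−2.10 for Mcm6) and close to 0 in group 3.

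The spread among treated livers was wider than among vehicle livers for all 9 genes. The SD over 4 arrays was 0.419 to 1.50 in treated livers and 0.0814 to 0.392 in vehicle livers. An SD larger in treated livers was found for 55.6% of all probe sets, and one at least 3 times as large for 6.65%. A ratio of at least 3 held for 4 of the 9, Mcm2 (ratio 5.36), Mcm3 (5.40), Mcm5 (3.57) and Mcm6 (7.44), and for 7 of the 9 without the nearly identical arrays, when it held for 14.6% of all probe sets. Pcna, Rrm1, Tyms, Mcm4 and Mcm7 had ratios of 1.82 to 2.93.

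Set against the vehicle range, treated 1 and treated 2 were each below the lowest vehicle liver for 9 of 9 genes, against 20.3% and 20.5% of all probe sets. Neither was above the highest vehicle liver for any (0 of 9, against 27.4% and 23.3%). Treated 3 was below for 2 (16.1% of all probe sets) and above for 3 (23%). Treated 4 was below for 0 (18.3%) and above for 7 of 9, against 15.7% of all probe sets, the exceptions being Pcna and Rrm1.

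**Figure D3:**
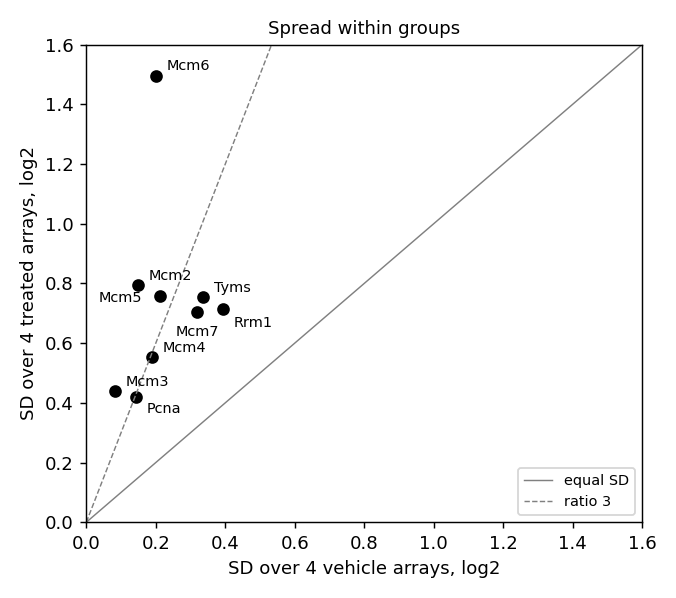
SD over 4 treated arrays (vertical) against SD over 4 vehicle arrays (horizontal), log2, 1 point per gene, with lines at equal SD and at a ratio of 3. All 9 points lie above equality, and Mcm6 has the largest treated SD, 1.50, beside a vehicle SD of 0.201.

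The licensing, fork, nucleotide and G1/S lists had median differences nearer to 0 than the 9, and the mitosis list one farther from 0. Of 17 measured genes of origin licensing and firing, which load and activate the helicase, 14 were lower and 3 higher, with a median difference of −0.13 over genes. None was called (0) and 1 of the 17 had an unadjusted p under 0.05 in limma, against 3.93% of all probe sets. This was Orc5, a subunit of the origin recognition complex, which was higher (7.91 ± 0.21 in treated and 7.59 ± 0.16 in vehicle livers). Mcm10, a factor that helps activate the helicase, averaged 7.09 ± 0.94 in treated and 7.86 ± 0.43 in vehicle livers. Gmnn, geminin, which blocks repeated licensing, averaged 5.92 ± 0.72 and Donson 5.60 ± 0.39 in treated livers, against 6.55 ± 0.56 and 6.03 ± 0.42 in vehicle livers. These levels are of the brightest probe set. Its difference was −0.64 for Gmnn and −0.77 for Mcm10, against −0.37 and −0.88 for the mean over the probe sets of each gene. For comparison, 46.5% of all 14217 genes were lower, with a median of 0.01.

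Of 36 measured replication fork genes (polymerases, clamp loader, single-strand binding and ligation), 26 were lower and 10 higher, with a median of −0.11. None was called (0), and 0 had an unadjusted p under 0.05 in limma, against 3.93% of all probe sets. The median was 0.01 without treated 2. Pclaf, a factor that binds the clamp, stood at 4.85, 4.82, 6.48 and 7.78 in treated livers, against 7.89, 7.08, 7.09 and 6.79 in vehicle livers. Treated 1 and 2 were the lowest livers for Pclaf as well, and treated 3 was also below the vehicle range. Pole, the catalytic subunit of DNA polymerase epsilon, averaged 5.49 ± 0.31 in treated and 5.84 ± 0.23 in vehicle livers. Rfc1, the large subunit of the clamp loader, averaged 8.48 ± 0.28 in treated and 8.11 ± 0.19 in vehicle livers, and Rnaseh2c, a subunit of a nuclease that removes RNA from DNA, 7.35 ± 0.40 in treated and 7.02 ± 0.14 in vehicle livers.

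Of 29 measured nucleotide synthesis genes, 17 were lower and 12 higher, with a median of −0.02 that was 0.04 after median centring of the arrays. Their list mean was 7.41 to 7.63 on treated and 7.46 to 7.69 on vehicle arrays. None was called (0), and 0 had an unadjusted p under 0.05 in limma, against 3.93% of all probe sets. Tk2, the mitochondrial thymidine kinase, averaged 6.83 ± 0.15 in treated and 6.54 ± 0.22 in vehicle livers. The mitochondrial folate enzymes Mthfd1l and Mthfd2 averaged 4.43 ± 0.20 and 5.82 ± 0.67 in treated livers, against 4.80 ± 0.35 and 6.38 ± 0.35 in vehicle livers. Ctps2, a CTP synthase, averaged 8.69 ± 0.17 in treated and 8.88 ± 0.12 in vehicle livers (difference −0.19, and −0.13 for the mean over its probe sets). This list mostly holds enzymes that also work outside S phase, and whether that bears on its median was not tested.

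Of 22 measured G1/S regulators, 17 were lower and 5 higher, with a median of −0.11. None was called (0) and 1 of the 22, Ccnd1, had an unadjusted p under 0.05 in limma, against 3.93% of all probe sets. Ccnd1, cyclin D1, which drives passage through G1, stood at 7.50, 7.99, 9.49 and 9.97 in treated livers, against 10.22, 10.31, 9.72 and 9.64 in vehicle livers. Treated 1 and 2 were lowest again, and only treated 4 reached the vehicle range. Its difference was −1.23 (−2.38 to −0.08, limma adjusted p = 0.979), and it lay between −1.64 and −0.82 when each array in turn was left out. The mean over the probe sets of Ccnd1 differed by −1.10. The E2F family members E2f8 and E2f2 averaged 4.08 ± 0.58 and 4.86 ± 0.57 in treated livers, against 4.65 ± 0.10 and 5.42 ± 0.29 in vehicle livers. Rbl1, the pocket protein p107, averaged 5.94 ± 0.85 in treated and 6.70 ± 0.41 in vehicle livers.

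Mitosis genes were lower in treated livers for 28 of 28 measured, against 46.5% of all genes, with a median of −0.96. None was called (0), and 0 of the 28 had an unadjusted p under 0.05 in limma, against 3.93% of all probe sets. Their list mean was 4.73, 4.75, 5.75 and 6.87 on treated 1 to 4, against 7.42, 6.31, 6.46 and 5.74 on vehicle 1 to 4. The mean of the 9 replication genes was 6.46, 6.45, 7.49 and 7.83 on treated 1 to 4, against 7.58, 7.35, 7.56 and 7.50 on vehicle 1 to 4. Treated 1 and 2 were lowest in both. Treated 3 and vehicle 4 were below all of vehicle 1 to 3 in the mitosis list but not in the mean of the 9, a difference that was not tested. Mki67, the Ki-67 antigen of cycling cells, stood at 3.94, 4.24, 6.55 and 7.76 in treated livers, against 8.43, 7.33, 7.63 and 6.18 in vehicle livers. Ccnb2, cyclin B2, averaged 5.84 ± 1.51, Prc1, a spindle midzone protein, 6.56 ± 1.28 and Bub1, a checkpoint kinase, 5.12 ± 1.47 in treated livers, against 7.35 ± 0.83, 7.90 ± 0.85 and 6.56 ± 0.86 in vehicle livers.

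**Figure D4:**
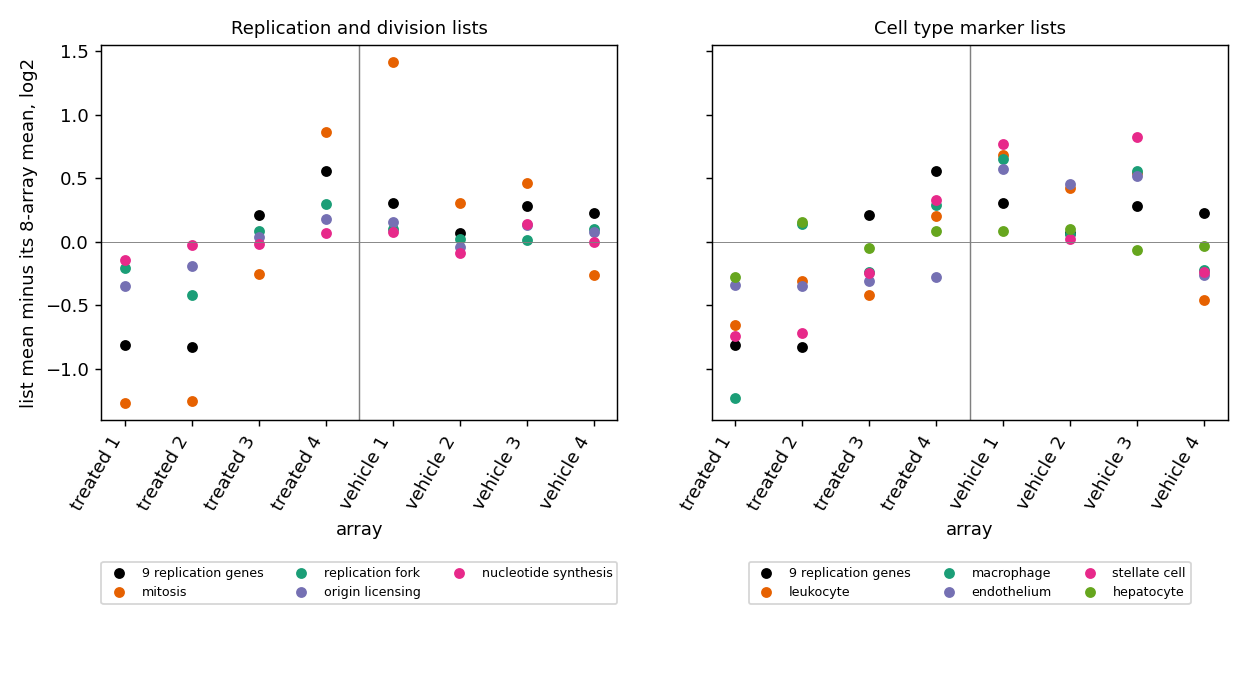
Mean log2 value of each gene list on each array, minus the list's mean over the 8 arrays, with treated arrays left of the vertical line and vehicle arrays right. The 9 replication genes (black) are lowest on treated 1 and 2, as is the mitosis list, while endothelial markers are low on all 4 treated arrays and on vehicle 4.

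Marker lists of several other cell types were also low on treated 1 or treated 2, and their part in the differences was not tested. In these lists 0 genes were called by limma. Those with an unadjusted p under 0.05 in limma were all lower in treated livers. They were 5 of 10 endothelial, 4 of 12 leukocyte, 3 of 12 stellate cell, 2 of 7 erythroid and 1 of 7 bile duct genes. Of all probe sets, 3.93% had such a p in either direction. The leukocyte list (12 of 12 measured, 9 lower) averaged 5.60 to 6.46 on treated and 5.79 to 6.94 on vehicle arrays. The macrophage list (9 of 12 measured, 8 lower) averaged 7.61 on treated 1 but 8.98 on treated 2, and 8.60 and 9.13 on treated 3 and 4, against 8.61 to 9.49 on vehicle arrays. Treated 1 alone was low for macrophages, whereas treated 1 and 2 were both lowest for the next 2 lists. The stellate cell and myofibroblast list (12 of 12 measured, 11 lower) averaged 7.02 or less on treated 1 and 2 and 7.50 and 8.07 on treated 3 and 4, against 7.50 to 8.57 on vehicle arrays. The bile duct list (7 of 10 measured, 7 lower) averaged 5.91, 6.04, 6.42 and 7.16 on treated 1 to 4, against 7.22, 6.64, 7.06 and 6.38 on vehicle 1 to 4. The endothelial list (10 of 12 measured, 10 lower) averaged 6.34 to 6.41 on treated and 6.43 to 7.27 on vehicle arrays, so that treated 4, where replication genes were high, was low for endothelium. Erythroid markers (7 of 10 measured, 5 lower) averaged 4.91 to 5.07 on treated and 5.09 to 5.50 on vehicle arrays. The B cell marker Ms4a1 and the erythroid marker Rhag were dim, averaging no more than the 25th percentile of all array values, and no other marker measured was.

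The genes most like the replication genes were ranked by Pearson's r over the 8 arrays with the mean of the 9, among 10643 single-symbol probe sets with a mean of at least 6 that belong to none of them. These correlations describe 8 arrays of which 2 are near-copies and 2, treated 1 and 2, stand apart, so the r without those 2 is given beside each. Cenpk, a centromere protein, came first (r = 0.990, rho = 0.881, and r = 0.854 over 6 arrays). Tspo, a mitochondrial outer membrane protein, was next (r = 0.989, rho = 0.905, and 0.938 over 6 arrays). Then came the complement regulator Cr1l (0.984, and 0.740 over 6 arrays), the cation channel Trpm4 (0.979 and 0.669), the tetraspanin Cd151 (0.979 and 0.870) and the small GTPase Rab5c (0.979 and 0.833). Cdkn3, a cell cycle phosphatase (0.974 and 0.585), and the sugar transporter Slc50a1 (0.970 and 0.911) closed the list. Cenpk stood at 5.99, 5.91, 7.86 and 8.03 in treated livers, against 7.72, 7.48, 7.89 and 7.70 in vehicle livers, with treated 1 and 2 the lowest and treated 4 the highest.

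An r of at least 0.7 over the 8 arrays with the mean of the 9 was found for 25 of 28 mitosis genes, 18 of 36 replication fork genes, 7 of 17 origin licensing genes, 9 of 22 G1/S regulators and 6 of 29 nucleotide synthesis genes. It was found for 7.91% of all 14217 genes, each at its brightest probe set. These counts rest on treated 1 and 2. Over the other 6 arrays an r of at least 0.7 was found for 1 of 28 mitosis genes, 6 of 36 replication fork genes, 1 of 17 origin licensing genes, 2 of 22 G1/S regulators and 2 of 29 nucleotide synthesis genes, against 6.36% of all genes. Of the members themselves, 4 of 9 had such an r with their own mean over the 6 arrays, beside 9 of 9 over 8. The median r between pairs over the 6 arrays was 0.63 among Mcm genes (−0.005 to 0.894, 15 pairs). It was 0.90 among Pcna, Rrm1 and Tyms (0.898 to 0.968, 3 pairs). Between an Mcm gene and 1 of those 3 it was 0.11 (−0.343 to 0.635, the highest for Mcm4 with Rrm1). The members also divided in their r with the mitosis list mean. Pcna, Rrm1 and Tyms had 0.955, 0.932 and 0.886 over the 6 arrays, beside 0.914, 0.954 and 0.962 over 8. Mcm4 had 0.423 over the 6 arrays, beside 0.850 over 8. Mcm2, Mcm3, Mcm5 and Mcm6 had −0.318, −0.403, −0.403 and −0.148 over the 6 arrays and Mcm7 0.0130, beside 0.655 to 0.781 over 8 for these 5 genes. With 6 arrays, of which 2 are near-copies, these values describe the arrays and were not tested.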

How the data were processed

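The authors deposited log2 values for 8 arrays, made with affy and RMA per the submitters' processing notes. Their versions and settings were not given in the sources used here. Summarizing by RMA draws small differences at low intensity towards 0. Tests did not include the 57 control probe sets. Groups and replicate numbers came from the sample titles, and gene symbols from the platform annotation (20826 probe sets with 1 symbol, 436 with several, 9780 with none). The differences come from limma 3.58.1 in R 4.3.3 (lmFit and eBayes, no covariates, Benjamini-Hochberg adjustment over 31042 probe sets, threshold 0.05). This fit was tested on simulated data with larger changes than those of the members and equal spread in both groups. It was not tested on spreads as unequal as theirs. SDs cover 4 arrays per group. For gene lists, a gene is the mean of its single-symbol probe sets. Unadjusted p-values, and the levels printed for named list genes, are those of its brightest probe set. The text names all members, from each pathway list the 4 genes with the smallest unadjusted p, and the 8 probe sets most like the members. Members, lists and tests were chosen with earlier results of these data known. Spike-in groups came from average-linkage clustering of the BioB, BioC, BioD and Cre controls. The sources do not say that the same replicate number marks pairs, and the main fit used none. The correlation of deviations from the group means was −0.62 to 0.04 over the 4 numbers, too few to show whether pairs existed. Array values carry no counts, so the number of arrays limits precision. The design text names 4 rats in each group, and n = 4 follows the labels.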

Additional observations from a re-analysis of the deposited data

How the results depend on the processing

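Of 161 recomputed differences of the 9 genes, 0 turned sign and 0 became a call. They were recomputed under quantile normalization, median centring, 2 filters on dim probe sets, 3 other variance or weight settings, both blocks, without the nearly identical arrays and without each array in turn. The filters and the balanced blocks leave a difference as it is, so no sign could turn there. Of the 3 variance or weight settings, only array weights could move a difference. No alternative left out both treated 1 and treated 2, the lowest livers for each gene. For Mcm2, Mcm3, Mcm5, Mcm6 and Mcm7, treated 3 and 4 were both above the vehicle mean. Without treated 1 and 2 those differences lie above 0, so their constant sign rests on these 2 livers. The number of probe sets called across the array was 0 to 11 without 1 array (11 without vehicle 4), 3 without the nearly identical arrays and 0 under each other alternative (the cause was not tested), and 0 of the 9 genes was called under any. At an unadjusted p under 0.05 the array-wide count of 1220 ranged from 481 (mean of at least 6) to 2885 (without treated 4). With the replicate block, 0 probe sets were called and 785 had an unadjusted p under 0.05 in limma. The numbers are not read as pairs, because the sources do not call them pairs. Of the 4 treated arrays, 1 correlated best with the vehicle array of its own number, which cannot settle whether pairs existed. The median of the 9 genes lay between −0.63 and −0.20 over all alternatives, that of mitosis genes between −1.51 and −0.64, origin licensing genes −0.21 and −0.06, and G1/S regulators −0.22 and −0.06. Replication fork genes (−0.21 to 0.01) and nucleotide synthesis genes (−0.08 to 0.04) reached both sides of 0. The count of genes with an SD ratio of at least 3, 4 of 9, was 7 without the nearly identical arrays, an alternative chosen after seeing the data. Tyms has no value under the filter at a mean of 6, and signal was not tested against background.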
